A study of Mus musculus with 6 samples.

Results

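The unfolded protein response and the integrated stress response were followed through 33 genes, selected by gene name from the 54309 genes listed in a table of transcript levels from mouse dorsal root ganglion (DRG) neurons. The genes comprised 12 assigned to the ATF6 arm of the response, 7 to the IRE1-XBP1 arm, 11 to the PERK-ATF4 arm and 3 endoplasmic reticulum (ER) genes assigned to no single arm. In the AAV-Leptin-GFP group, male C57bl/6 mice aged 8 to 10 weeks carried a viral vector for leptin and GFP delivered through both sciatic nerves, and in the AAV-GFP group the same strain, sex and age carried a vector for GFP. Both groups received the vector 4 weeks before a dorsal column axotomy (DCA), an injury to the spinal branches of sensory axons, and L4-6 DRG were taken 24 hours after it, so that viral GFP, injury and dissociation were common to both. Each group had 3 libraries, made from cells enriched for neurons on an albumin gradient. The promoter of the vector, the share of neurons it reached and the number of animals behind a library are not stated in the labels, and no uninjured group was analysed. p-values therefore measure the spread between libraries, which may be technical. The question addressed is whether leptin delivery altered this stress response in injured sensory neurons.

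Several ER membrane proteins sense unfolded protein. ATF6 is carried to the Golgi and cut to release a transcription factor that induces chaperone genes. IRE1, encoded by Ern1, removes a short segment from the Xbp1 mRNA, which changes the reading frame and yields an active transcription factor for folding and degradation genes. PERK, encoded by Eif2ak3, phosphorylates the translation factor eIF2, which slows protein synthesis while favouring translation of ATF4, and ATF4 induces genes of amino acid supply, of redox defence and of recovery from the block. The last arm is shared with the integrated stress response, which other eIF2 kinases also start. The cleavage of ATF6 and the translation of ATF4 take place on protein or ribosomes and leave no direct trace in transcript levels.

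The sequences that set the arms apart are the segment that IRE1 cuts out and the promoter elements read by the factors of each arm. The Xbp1 segment is 26 nt long and was found at nucleotides 815 to 840 of the 2129 nt transcript Xbp1-201 of GENCODE M21 (GRCm38, Xbp1 at chr11:5520659-5525893, plus strand). It lies in the coding sequence. With it the reading frame has 267 codons, and without it 371. The removed segment is in capitals, with 20 bases on either side.
Xbp1 segment: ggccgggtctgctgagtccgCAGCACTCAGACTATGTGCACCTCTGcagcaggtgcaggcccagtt

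Promoters of 28 of the 33 genes were matched in RefSeq (GRCm38.p6), each spanning 250 bases before to 50 bases after the transcription start. They were searched on both strands for the ER stress element ERSE (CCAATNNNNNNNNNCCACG), which binds NF-Y and ATF6, and for ERSE-II (ATTGGNCCACG). ERSE was present in 8 of the 28 genes, against 0.119% of 32851 promoters searched. The 8 genes were 5 of 9 in the ATF6 arm, 2 of 7 in the IRE1-XBP1 arm, none of 10 in the PERK-ATF4 arm and 1 of 2 in no single arm. These sites are shown because they name the genes that carry the element of the ATF6 arm. They are written along the strand of the gene with the element in capitals and 10 bases on either side.
Hspa5 ERSE: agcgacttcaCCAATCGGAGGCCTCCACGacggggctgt
Hsp90b1 distal ERSE: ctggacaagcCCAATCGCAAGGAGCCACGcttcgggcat
Hsp90b1 proximal ERSE: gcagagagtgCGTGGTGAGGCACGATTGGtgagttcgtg
Calr ERSE: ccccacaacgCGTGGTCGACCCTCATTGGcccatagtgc
Creld2 ERSE: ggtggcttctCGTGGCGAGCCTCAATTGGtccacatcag
Pdia6 ERSE: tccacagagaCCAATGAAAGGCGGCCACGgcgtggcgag
Dnajc3 ERSE: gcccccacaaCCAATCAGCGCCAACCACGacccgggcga
Syvn1 ERSE: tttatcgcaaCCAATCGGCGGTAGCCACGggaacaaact
Canx ERSE: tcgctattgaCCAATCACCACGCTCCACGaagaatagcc
Herpud1 ERSE-II: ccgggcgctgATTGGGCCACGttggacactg

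The Hspa5 element covers chr2:34772025-34772043 on the plus strand, 65 bases before the RefSeq start, and the Hsp90b1 gene holds a pair of elements, at 212 and 107 bases before its start (chr10:86705638-86705656 and chr10:86705533-86705551, gene on the minus strand). ERSE-II was found in Herpud1 (chr8:94386377-94386387) and Dnajb11, against 0.0365% of all promoters. The core of the XBP1 element UPRE (TGACGTGG) was in none of the 28 and in 0.676% of all promoters. The core of the composite C/EBP-ATF element that ATF4 binds (TGATGNAA) was in 4 of the 28, against 3.97% of all promoters, and 3 of the 4 belong to the PERK-ATF4 arm, in which 10 promoters were searched. No element overlapped another in these genes. A match is a stretch of letters and not a shown binding site.
Asns C/EBP-ATF core: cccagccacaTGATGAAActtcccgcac
Chac1 C/EBP-ATF core: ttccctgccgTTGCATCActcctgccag
Trib3 C/EBP-ATF core: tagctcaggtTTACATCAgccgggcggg
Herpud1 C/EBP-ATF core: ccacggcgggTTGCATCAgcccgcaccc

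The libraries were checked before the genes were compared, and wherever 3 values of a group are given they are those of replicates 1, 2 and 3. Leptin itself (Lep), the delivered gene, was at 0.751, 0.547 and 3.56 TPM in the 3 AAV-Leptin-GFP libraries and listed at 0 in all 3 AAV-GFP libraries. TPM counts transcripts per 1000000 and is scaled for transcript length, each library adds to 1000000, and the read depth behind it is unknown. Summed markers of sensory neurons were 20327 to 20685 TPM in AAV-Leptin-GFP libraries and 20886 to 21744 TPM in AAV-GFP libraries, those of satellite glia 7148 to 7836 TPM with AAV-Leptin-GFP and 7947 to 9070 TPM with AAV-GFP, and those of Schwann cells 1239 to 1345 TPM with AAV-Leptin-GFP and 1399 to 1489 TPM with AAV-GFP. Both kinds of glia were thus still present. Most of the satellite glia sum was Apoe, which averaged 6229 TPM with AAV-Leptin-GFP and 7164 TPM with AAV-GFP. The median log2 fold change of the 8 satellite glia genes was 0.066, so the lower sum does not describe the list as a whole. Macrophage markers summed to 71.2 to 76.8 TPM with AAV-Leptin-GFP and 64.3 to 103 TPM with AAV-GFP, those of fibroblasts to 59.4 to 87.6 TPM with AAV-Leptin-GFP and 60.9 to 75.4 TPM with AAV-GFP, and those of endothelial cells to 7.59 to 15.5 TPM with AAV-Leptin-GFP and 9.34 to 12.5 TPM with AAV-GFP. Erythroid markers summed to 239, 374 and 1724 TPM in the 3 AAV-Leptin-GFP libraries and to 170.1 to 256 TPM in AAV-GFP libraries. No marker of these 7 lists passed the test. Mitochondrial transcripts took 7.35 to 9.15% of TPM in AAV-Leptin-GFP libraries and 5.67 to 6.13% in AAV-GFP libraries, with AAV-Leptin-GFP replicate 3 highest. In bulk samples such as these, fewer cells of a type and less RNA per cell cannot be told apart.

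Leptin delivery moved none of the 33 stress genes past the test. All 33 exceeded the filter of a mean of 1 TPM, and 0 were higher and 0 lower in AAV-Leptin-GFP libraries at a limma adjusted p under 0.05 (two-sided, on log2(TPM + 1), adjusted over 15108 genes). Over all tested genes 1.54% were higher and 0.0662% lower by the same rule. At an unadjusted p under 0.05, limma called 1 of the 33, the phosphatase subunit gene Ppp1r15a, against 19.5% of all tested genes in either direction. The values of the groups overlapped in every one of the 33, so that 0 genes stood wholly higher and 0 wholly lower, against 13.3% and 11.9% of all tested genes. Of the log2 fold changes, on the log2(TPM + 1) scale and AAV-Leptin-GFP minus AAV-GFP, 16 were above 0 and 17 below, and their median was -0.0039, beside -0.00016 for all tested genes. Their median size was 0.050, against 0.109 over all tested genes and 0.097 over the 11332 genes that averaged 5 TPM or more. The median standard error was 0.074 for the 33 genes, against 0.098 over all tested genes and 0.081 over the 11332. The 95% interval of the log2 fold change lay within 0.5 of 0 for 30 of the 33 and within 1 of 0 for all 33. Together the genes held 0.240 to 0.261% of TPM in AAV-Leptin-GFP libraries and 0.247 to 0.2595% in AAV-GFP libraries.

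**Figure D1:**
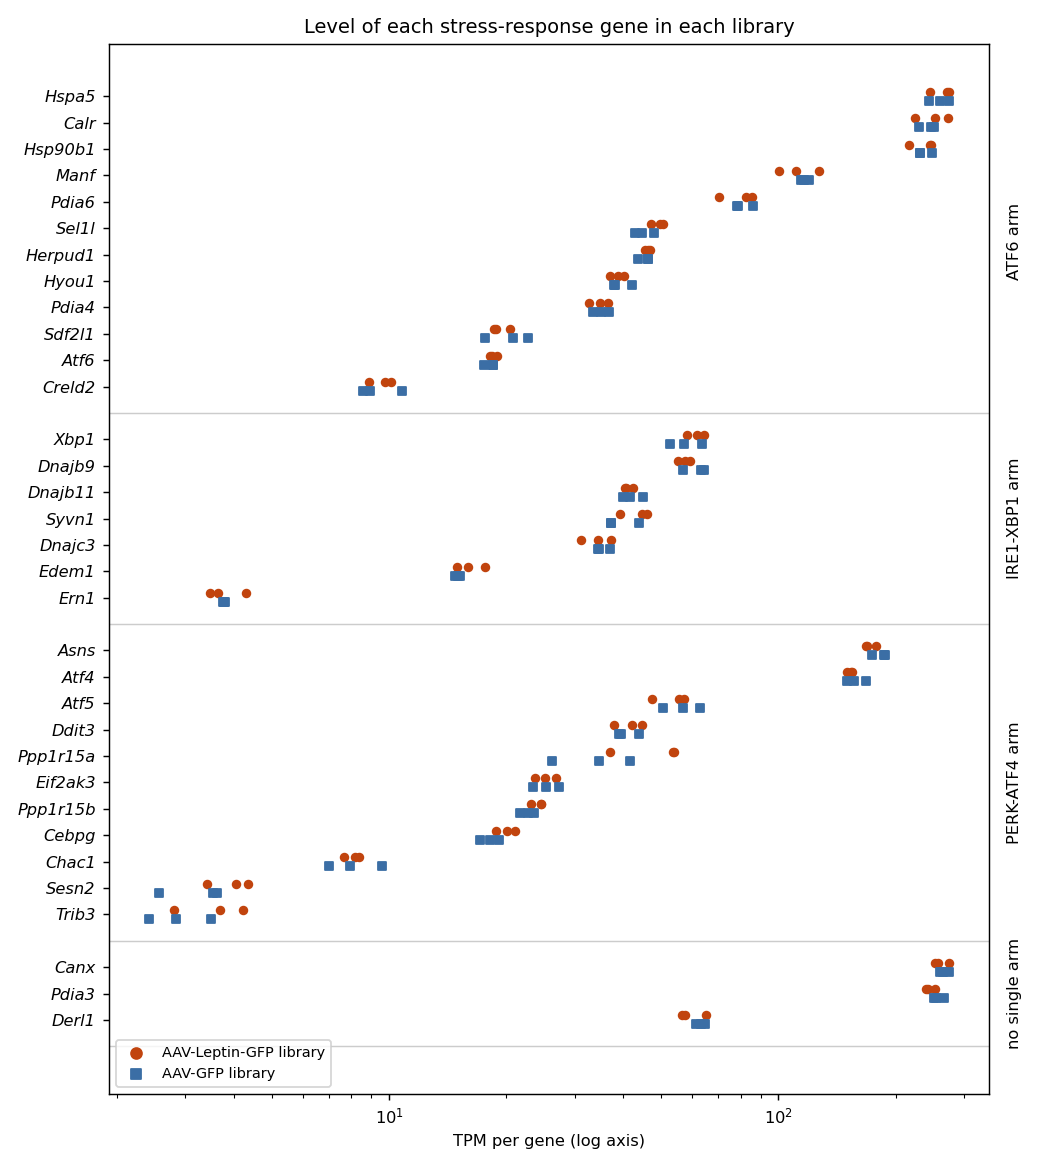
Level of each of the 33 genes in each library, in TPM on a log axis, with AAV-Leptin-GFP libraries as circles above AAV-GFP libraries as squares and genes ordered by mean level within each arm. In every row the ranges of circles and squares overlap, also in Ppp1r15a, the gene with the highest log2 fold change, where AAV-Leptin-GFP libraries reach 54.1 TPM and AAV-GFP libraries go down to 26.3 TPM.

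No gene of the ATF6 arm passed the test. Atf6 itself (chr1:170704674-170867771, minus strand), the sensor, was at 18.4, 18.9 and 18.1 TPM in the 3 AAV-Leptin-GFP libraries, against 18.5, 17.6 and 18.5 TPM in the 3 AAV-GFP libraries. These 6 values lie close together, and the log2 fold change was 0.020 (SE 0.062, limma adjusted p = 0.897). Its highest target, Hspa5, encodes BiP, the ER chaperone that binds unfolded protein and holds the sensors inactive. Hspa5 stood at 271, 275 and 245 TPM in the 3 AAV-Leptin-GFP libraries and at 244, 260.2 and 274 TPM in the 3 AAV-GFP libraries. The groups cover the same range, with a low and a high library in each, and the log2 fold change was 0.024 with a 95% interval of -0.12 to 0.17 (limma adjusted p = 0.873).

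The other chaperones of the ATF6 arm likewise had overlapping groups. Hsp90b1, which encodes GRP94 and carries a pair of ERSE sites in its promoter, averaged 236 ± 17.1 TPM with AAV-Leptin-GFP and 237 ± 9.58 TPM with AAV-GFP (SD, n = 3 each, as for all means below). Calr, the lectin chaperone calreticulin, averaged 249 ± 24.0 TPM with AAV-Leptin-GFP and 242 ± 11.3 TPM with AAV-GFP. In both genes AAV-Leptin-GFP replicate 3 was the lowest of the 6 libraries, at 217 TPM for Hsp90b1 and 224 TPM for Calr. Hyou1, the nucleotide exchange factor of BiP, averaged 38.6 ± 1.63 TPM with AAV-Leptin-GFP and 39.3 ± 2.32 TPM with AAV-GFP, and Sdf2l1, a cofactor of the BiP cycle, 19.3 ± 0.997 TPM with AAV-Leptin-GFP and 20.4 ± 2.56 TPM with AAV-GFP. For both genes the means differed by less than the SD of the AAV-GFP libraries. Among enzymes that form disulfide bonds, Pdia6 averaged 79.6 ± 8.02 TPM with AAV-Leptin-GFP and 81.2 ± 4.41 TPM with AAV-GFP, and Pdia4 34.7 ± 2.01 TPM with AAV-Leptin-GFP and 35.0 ± 1.64 TPM with AAV-GFP. Creld2, which encodes a related ER protein, averaged 9.59 ± 0.636 TPM with AAV-Leptin-GFP and 9.44 ± 1.19 TPM with AAV-GFP. Manf, which encodes an ER protein that is secreted and protects neurons, averaged 113 ± 13.7 TPM with AAV-Leptin-GFP and 117 ± 2.78 TPM with AAV-GFP, and its highest and lowest libraries were both from the AAV-Leptin-GFP group (127 and 100.3 TPM).

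The degradation genes of the arm were Herpud1 and Sel1l, which act in the retrotranslocation complex that takes misfolded protein out of the ER. Herpud1 averaged 46.1 ± 0.732 TPM with AAV-Leptin-GFP and 45.3 ± 1.504 TPM with AAV-GFP. Sel1l had the smallest p of the arm, with 47.2, 49.7 and 50.6 TPM in the 3 AAV-Leptin-GFP libraries and 44.7, 42.9 and 48.0 TPM in the 3 AAV-GFP libraries. Only AAV-Leptin-GFP replicate 1 and AAV-GFP replicate 3 overlapped. Its log2 fold change was 0.12 (SE 0.060, limma adjusted p = 0.329), and 0.00099 when its retained-intron transcripts were left out of the sum. Over the arm, 6 genes were above 0 and 6 below, with a median log2 fold change of 0.0079 and a range of -0.069 to 0.12.

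In the IRE1-XBP1 arm the sensor was the scarcest gene, and again no gene passed the test. Ern1 (chr11:106394650-106487852, minus strand) was at 3.64, 4.29 and 3.46 TPM in the 3 AAV-Leptin-GFP libraries and at 3.78, 3.80 and 3.75 TPM in the 3 AAV-GFP libraries. The AAV-GFP values fell between the AAV-Leptin-GFP ones, and the log2 fold change was 0.0026 (SE 0.11, limma adjusted p = 0.996). Xbp1, the arm's transcription factor and its most abundant gene by a small margin over Dnajb9, was at 64.6, 61.9 and 58.2 TPM in the 3 AAV-Leptin-GFP libraries, against 63.5, 57.1 and 52.7 TPM in the 3 AAV-GFP libraries. The groups overlap, and the log2 fold change was 0.092 (SE 0.078, limma adjusted p = 0.562).

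The log2 fold changes of the co-chaperones of BiP were slightly below 0, though Dnajb11 lay above 0 in 2 of 17 alternatives and Dnajc3 in 1. Dnajb9, which encodes ERdj4, a BiP partner that also restrains IRE1, had the smallest p of the arm, with 59.2, 55.3 and 57.5 TPM in the 3 AAV-Leptin-GFP libraries and 63.1, 56.9 and 64.3 TPM in the 3 AAV-GFP libraries. AAV-GFP replicate 2 fell among the AAV-Leptin-GFP values, and the log2 fold change was -0.096 (SE 0.062, limma adjusted p = 0.449). Dnajb11, which encodes ERdj3, averaged 41.2 ± 1.04 TPM with AAV-Leptin-GFP and 42.1 ± 2.60 TPM with AAV-GFP, and Dnajc3, which encodes p58IPK, 34.2 ± 3.08 TPM with AAV-Leptin-GFP and 35.3 ± 1.36 TPM with AAV-GFP. The degradation genes lay on the other side of 0. Edem1, which directs misfolded glycoproteins to disposal, averaged 16.1 ± 1.36 TPM with AAV-Leptin-GFP and 15.0 ± 0.227 TPM with AAV-GFP, and Syvn1, the ubiquitin ligase that works with Sel1l, 43.2 ± 3.49 TPM with AAV-Leptin-GFP and 39.4 ± 3.91 TPM with AAV-GFP. The log2 fold change of Syvn1, 0.13, was the highest of the arm and had a 95% interval of -0.077 to 0.34. The arm had 4 genes above 0 and 3 below, with a median of 0.0026 and a range of -0.096 to 0.13.

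**Figure D2:**
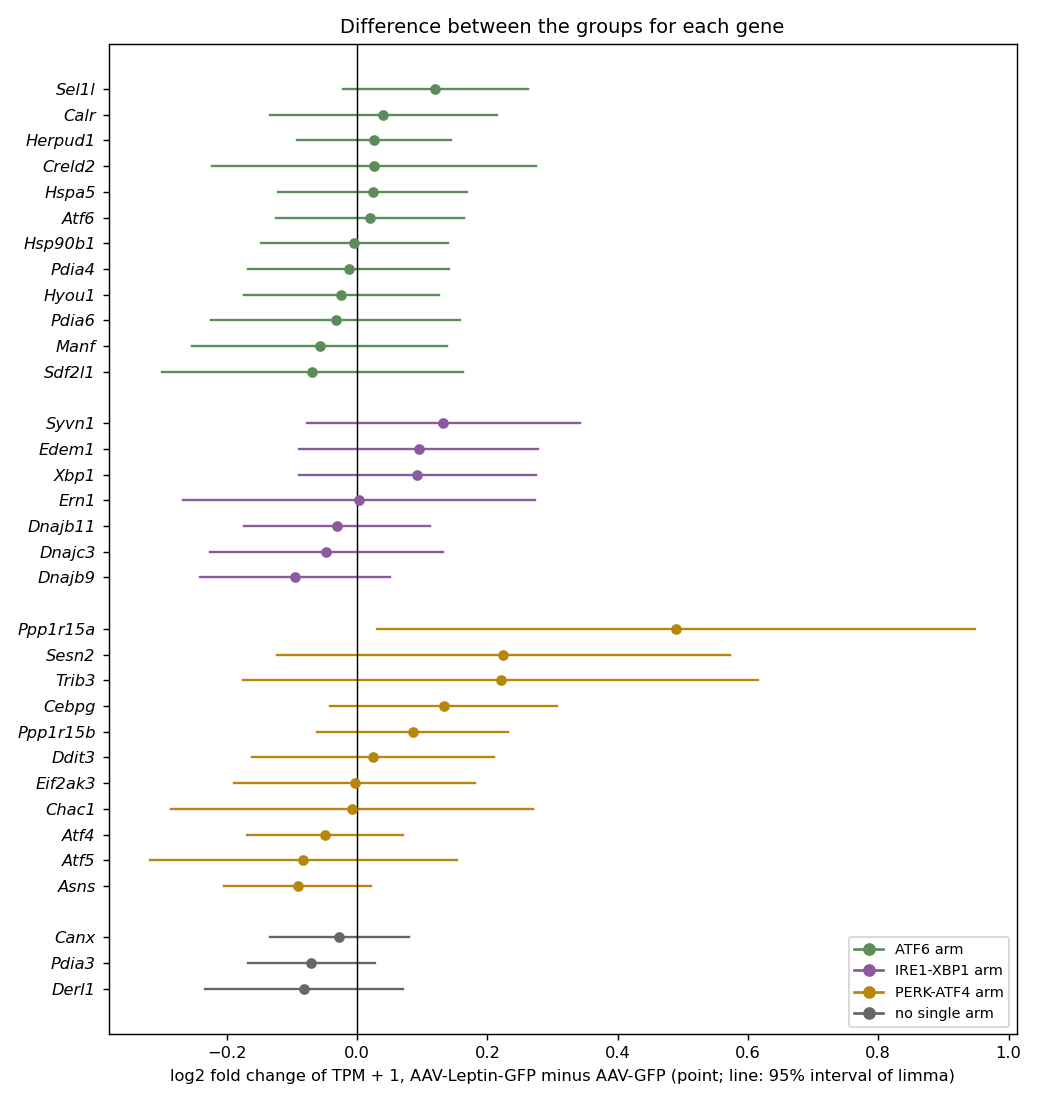
Log2 fold change of each gene with its 95% interval, on the log2(TPM + 1) scale and AAV-Leptin-GFP minus AAV-GFP, coloured by arm. All intervals but that of Ppp1r15a (0.031 to 0.95) include 0, and those of 3 genes of the PERK-ATF4 arm, Ppp1r15a, Sesn2 and Trib3, are the only ones that reach past 0.5.

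The PERK-ATF4 arm held the single gene with an unadjusted p under 0.05, while its sensor and main factors did not pass. Eif2ak3 (chr6:70844515-70905245, plus strand), the kinase, was at 26.8, 25.2 and 23.7 TPM in the 3 AAV-Leptin-GFP libraries and at 25.3, 23.4 and 27.3 TPM in the 3 AAV-GFP libraries, and the log2 fold change was -0.0039 (SE 0.079, limma adjusted p = 0.989). Atf4 (chr15:80255184-80257541, plus strand) was at 155, 150.0 and 154 TPM in the 3 AAV-Leptin-GFP libraries, against 168, 150.2 and 156 TPM in the 3 AAV-GFP libraries. The AAV-Leptin-GFP libraries lay within 5 TPM of each other at the lower end of the AAV-GFP range, and the log2 fold change was -0.050 (SE 0.051, limma adjusted p = 0.644). Ddit3, which encodes CHOP, the factor tied to cell death in lasting ER stress, was at 44.6, 42.2 and 37.8 TPM in the 3 AAV-Leptin-GFP libraries and at 39.0, 39.5 and 43.8 TPM in the 3 AAV-GFP libraries. Both groups had values at either end, and the log2 fold change was 0.025 (SE 0.079, limma adjusted p = 0.903). A second gene identifier carries the name Ddit3 on the same stretch of chromosome 10 and was listed at 0 in all 6 libraries.

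Further factors of the arm were Atf5, a relative of Atf4, and Cebpg, which encodes a dimer partner of ATF4. Atf5 was at 57.2, 55.6 and 47.4 TPM in the 3 AAV-Leptin-GFP libraries and at 62.8, 56.8 and 50.4 TPM in the 3 AAV-GFP libraries. Cebpg was at 21.1, 20.1 and 18.8 TPM in the 3 AAV-Leptin-GFP libraries and at 19.2, 17.1 and 18.2 TPM in the 3 AAV-GFP libraries. The groups overlapped for both, and neither passed the test (limma adjusted p = 0.703 for Atf5 and 0.383 for Cebpg). The log2 fold change of Cebpg, 0.13, was 0.0091 over its coding transcripts alone. Asns, asparagine synthetase, was the most abundant gene of the arm, with 168, 169 and 178 TPM in the 3 AAV-Leptin-GFP libraries and 187, 174 and 188 TPM in the 3 AAV-GFP libraries. AAV-GFP replicate 2 and AAV-Leptin-GFP replicate 3 overlapped, and the log2 fold change was -0.091 (SE 0.048, limma adjusted p = 0.352). Chac1, an enzyme that degrades glutathione, averaged 8.07 ± 0.371 TPM with AAV-Leptin-GFP and 8.17 ± 1.31 TPM with AAV-GFP. The scarcest targets were Trib3, a pseudokinase that binds ATF4, at 3.56 ± 0.707 TPM with AAV-Leptin-GFP and 2.91 ± 0.540 TPM with AAV-GFP, and Sesn2, a sestrin that curbs mTORC1, at 3.93 ± 0.469 TPM with AAV-Leptin-GFP and 3.24 ± 0.577 TPM with AAV-GFP. Their log2 fold changes were both 0.22, with 95% intervals of -0.18 to 0.62 for Trib3 and -0.12 to 0.57 for Sesn2. The 3 genes of this arm with a C/EBP-ATF core in their promoters thus had log2 fold changes of -0.091 for Asns, -0.0075 for Chac1 and 0.22 for Trib3. Herpud1 of the ATF6 arm, which also has the core, had a log2 fold change of 0.027.

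Ppp1r15a and Ppp1r15b encode the subunits that direct protein phosphatase to eIF2 and reverse the block on translation. GADD34, the product of Ppp1r15a, is induced by stress, and CReP, the product of Ppp1r15b, is made constitutively. Ppp1r15a (chr7:45522916-45526268, minus strand) was at 53.5, 54.1 and 37.0 TPM in the 3 AAV-Leptin-GFP libraries, against 41.5, 26.3 and 34.5 TPM in the 3 AAV-GFP libraries. AAV-Leptin-GFP replicates 1 and 2 were above every AAV-GFP library, and AAV-Leptin-GFP replicate 3 was below AAV-GFP replicate 1. The log2 fold change was 0.49 with a 95% interval of 0.031 to 0.95 (SE 0.20, limma adjusted p = 0.231, range 0.163 to 0.490 over 17 alternatives). Leaving out AAV-Leptin-GFP replicate 3 gave a log2 fold change of 0.67, leaving out AAV-GFP replicate 2 gave 0.32, and the unadjusted p was under 0.05 in 11 of the 17 alternatives. Ppp1r15b averaged 24.1 ± 0.821 TPM with AAV-Leptin-GFP and 22.6 ± 0.938 TPM with AAV-GFP, with a log2 fold change of 0.085 (limma adjusted p = 0.509), and of 0.21 over coding transcripts alone. Its coding transcript Ppp1r15b-201 was at 20.05, 18.9 and 16.7 TPM in the 3 AAV-Leptin-GFP libraries and at 15.5, 16.3 and 15.8 TPM in the 3 AAV-GFP libraries, with no overlap and a limma adjusted p of 0.268 in the test on single transcripts. Over the PERK-ATF4 arm 6 genes were above 0 and 5 below, with a median of 0.025 and a range of -0.091 to 0.49.

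The 3 ER genes assigned to no single arm had log2 fold changes below 0 and none was called. For Canx the sign turned in 2 of 17 alternatives. Canx, the membrane lectin calnexin and the most abundant, was at 257, 274 and 253 TPM in the 3 AAV-Leptin-GFP libraries and at 265, 259.7 and 274 TPM in the 3 AAV-GFP libraries. Pdia3, the disulfide isomerase that works with calnexin and calreticulin, had the smallest p, with 253, 242 and 239.5 TPM in the 3 AAV-Leptin-GFP libraries against 252, 254 and 266 TPM in the 3 AAV-GFP libraries. A single AAV-Leptin-GFP library, replicate 1, reached the AAV-GFP range, and the log2 fold change was -0.071 (SE 0.042, limma adjusted p = 0.405). Derl1, a derlin of the retrotranslocation channel, averaged 59.8 ± 4.70 TPM with AAV-Leptin-GFP and 63.2 ± 1.62 TPM with AAV-GFP.

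Set side by side, the 3 arms had median log2 fold changes of 0.0079 (ATF6), 0.0026 (IRE1-XBP1) and 0.025 (PERK-ATF4), each of them smaller than the median standard error of its own genes (0.065, 0.078 and 0.079). The spread among libraries of a group was wider than these medians. Each gene's log2(TPM + 1) was centred on its mean over the 6 libraries and averaged over the arm. For the ATF6 arm this deviation was 0.031, 0.042 and -0.067 in AAV-Leptin-GFP replicates 1, 2 and 3 and -0.013, -0.017 and 0.024 in AAV-GFP replicates 1, 2 and 3. For the IRE1-XBP1 arm it was 0.058, 0.030 and -0.057 with AAV-Leptin-GFP and 0.034, -0.053 and -0.013 with AAV-GFP. In the PERK-ATF4 arm, which varied most, it was 0.12, 0.061 and -0.048 with AAV-Leptin-GFP and 0.030, -0.15 and -0.0097 with AAV-GFP. In each of the 3 arms AAV-Leptin-GFP replicate 3 was the lowest of its group. It was the lowest of all 6 libraries for 13 of the 33 genes, namely 6 of 12 in the ATF6 arm, 2 of 7 in the IRE1-XBP1 arm, 2 of 11 in the PERK-ATF4 arm and all 3 with no single arm. How many of all tested genes were lowest in this library was not counted, so the counts cannot be read as particular to the stress genes. The same library had the highest erythroid sum (1724 TPM), the highest mitochondrial share (9.15%) and the most Lep, the delivered gene (3.56 TPM). Their part in its low values was not tested. Without this library the medians were 0.042, 0.053 and 0.090 for the ATF6, IRE1-XBP1 and PERK-ATF4 arms, and again 0 genes were called. Other left-out libraries turned the signs: the medians went down to -0.030 (ATF6) and -0.051 (IRE1-XBP1) without AAV-Leptin-GFP replicate 2, and to -0.0033 (PERK-ATF4) without AAV-GFP replicate 1.

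**Figure D3:**
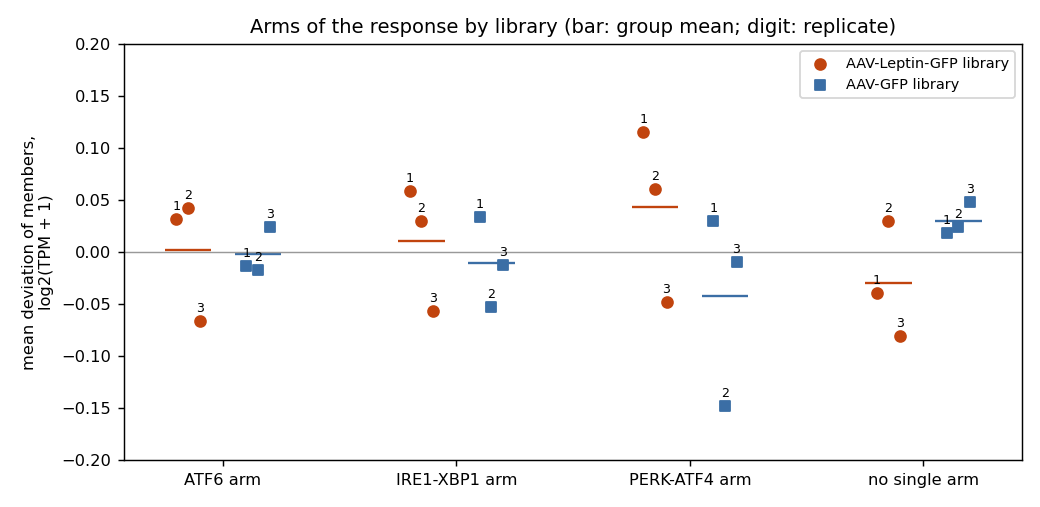
Mean deviation of the genes of each arm in each library, in log2(TPM + 1) from each gene's mean over the 6 libraries, with AAV-Leptin-GFP as circles left of AAV-GFP as squares, bars for group means and digits for replicates. The groups overlap in every arm, and AAV-Leptin-GFP replicate 3 is the lowest circle in each.

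The splicing of Xbp1 by IRE1, the direct output of that sensor, could not be read from the table. Of the 5 Xbp1 transcripts listed, Xbp1-201, Xbp1-203 and Xbp1-204 hold the 26 nt segment shown above, Xbp1-202 is a retained-intron transcript that holds neither form, and ENSMUST00000239150 is not in GENCODE M21, so its sequence was not analysed here. No listed transcript found in that annotation carries the joined form. Xbp1-201 was at 52.7, 47.4 and 45.7 TPM in the 3 AAV-Leptin-GFP libraries and at 54.9, 45.7 and 46.5 TPM in the 3 AAV-GFP libraries, and the ranges overlap. It took 78.9 ± 2.48% of Xbp1 TPM with AAV-Leptin-GFP and 84.9 ± 4.32% with AAV-GFP (exact permutation test, two-sided p = 0.2, where 0.1 is the smallest this design allows). This share does not measure splicing, since Xbp1-203 and Xbp1-204 also hold the segment and the form of ENSMUST00000239150 is unknown. ENSMUST00000239150 was at 4.19, 3.61 and 4.36 TPM in the 3 AAV-Leptin-GFP libraries, against 5.79, 9.12 and 4.39 TPM in the 3 AAV-GFP libraries. All its AAV-GFP values were above the AAV-Leptin-GFP ones, with 4.36 and 4.39 TPM as nearest neighbours, and limma on single transcripts gave a log2 fold change of -0.51 (adjusted p = 0.338). Xbp1-202 was at 2.41, 4.83 and 4.43 TPM in the 3 AAV-Leptin-GFP libraries and at 0.698, 0.117 and 0.564 TPM in the 3 AAV-GFP libraries. Its AAV-GFP mean, 0.459 TPM, lay under the 1 TPM filter of the transcript test, which it passed through the AAV-Leptin-GFP group alone, so its values are given with no test.

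**Figure D4:**
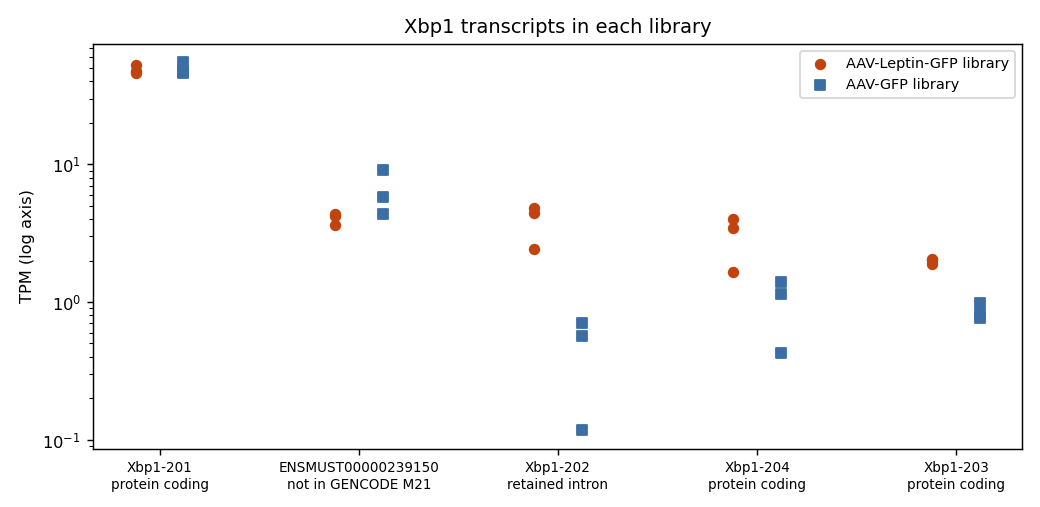
TPM of the 5 Xbp1 transcripts in each library on a log axis, with AAV-Leptin-GFP as circles left of AAV-GFP as squares. Xbp1-201 overlaps between groups near 50 TPM, while the scarcer Xbp1-202, Xbp1-203 and Xbp1-204 are higher in every AAV-Leptin-GFP library. Their AAV-GFP means were 0.459, 0.857 and 0.988 TPM, under the 1 TPM filter of the transcript test, which they passed through the AAV-Leptin-GFP group alone.

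Below the level of gene sums, the stress genes carried more TPM on retained-intron transcripts in AAV-Leptin-GFP libraries, as genes did in general. A retained-intron transcript keeps an intron of a coding model and is annotated as non-coding. Such transcripts held 4.89, 4.43 and 4.22% of the TPM of the 33 genes in the 3 AAV-Leptin-GFP libraries and 3.07, 2.62 and 2.56% in the 3 AAV-GFP libraries. The groups did not overlap, with means of 4.51 ± 0.346% with AAV-Leptin-GFP and 2.75 ± 0.278% with AAV-GFP, a ratio of 1.64. Over all genes the means were 3.53 ± 0.260% with AAV-Leptin-GFP and 2.29 ± 0.200% with AAV-GFP, a ratio of 1.54. Of the 33 genes 18 had any such TPM, and all 18 had the higher mean with AAV-Leptin-GFP, as did 83.8% of 8189 genes in all. The median ratio of group means, AAV-Leptin-GFP over AAV-GFP, was 4.96 over the 18 and 2.86 over the 8189. Many of the 18 had AAV-GFP means under 1 TPM on these transcripts, so their ratios rest on low values. The libraries of the groups did not overlap, with AAV-Leptin-GFP higher, in 12 of the 18, against 39.8% of the 8189, and in none with AAV-Leptin-GFP lower. Among genes that averaged 1 such TPM or more, a limit that some passed through the AAV-Leptin-GFP group alone, it was 8 of 11 against 56.9% of 3274. Over whole libraries, 61474 to 64423 transcripts were listed above 0 with AAV-Leptin-GFP and 55476 to 60572 with AAV-GFP, and the mitochondrial share given above was also apart between the groups. Their part in the retained-intron difference was not tested. The 12 included genes of each arm, among them Calr, Hsp90b1, Hspa5 and Sel1l of the ATF6 arm, Xbp1 and Syvn1 of the IRE1-XBP1 arm, and Atf4, Ddit3 and Eif2ak3 of the PERK-ATF4 arm. Manf stood apart in its level, since retained-intron transcripts made up 47.4 to 51.5% of its TPM in AAV-Leptin-GFP libraries and 45.2 to 48.4% in AAV-GFP libraries.

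**Figure D5:**
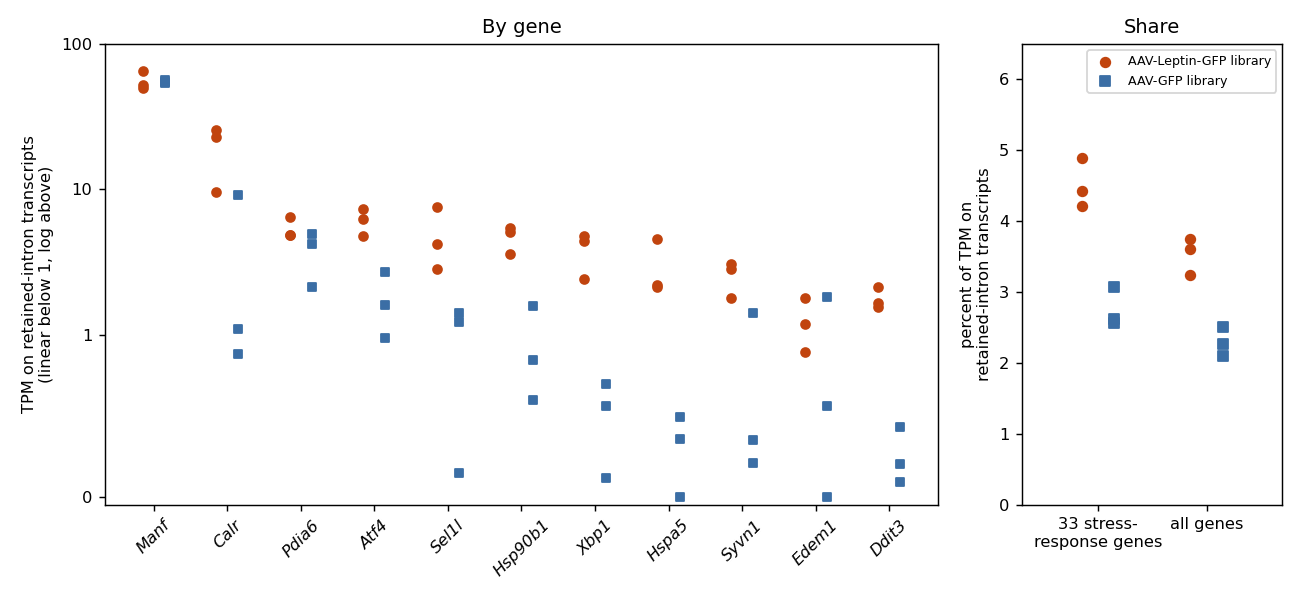
Left, TPM on retained-intron transcripts in each library for the 11 stress genes that averaged 1 such TPM or more, on an axis that is linear below 1 and logarithmic above, and right, the share of TPM on such transcripts for the 33 genes and for all genes, with AAV-Leptin-GFP as circles left of AAV-GFP as squares. The shares of the 33 genes run from 4.22 to 4.89% in AAV-Leptin-GFP libraries and from 2.56 to 3.07% in AAV-GFP libraries, and those of all genes are apart in the same direction.

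A test on single transcripts was added after the values were seen. It covered 33615 transcripts that averaged 1 TPM or more, 64 of them among the 136 of the stress genes. At a limma adjusted p under 0.05, 0 of the 64 were higher and 0 lower, against 0.107% and 0.0238% of all tested transcripts. At an unadjusted p under 0.05, 12 of the 64 were higher, against 12.3% of all tested transcripts, and 1, Asns-201, was lower (log2 fold change -0.11), against 6.01%. Of the 12, 6 were retained-intron transcripts, out of 10 of that class tested, where 50% of 4245 retained-intron transcripts met the rule. In 5 of those 6, and in 8 of the 12 in all, the AAV-GFP mean was under 1 TPM, so they passed the filter through the AAV-Leptin-GFP group alone and had to differ, and no weight rests on these counts. Calr-203 was at 4.94, 7.28 and 6.80 TPM in the 3 AAV-Leptin-GFP libraries, against 1.78, 0.308 and 0.728 TPM in the 3 AAV-GFP libraries. It is among the 8, and its values are given with no test. Atf4-203 was at 4.78, 7.30 and 6.32 TPM in the 3 AAV-Leptin-GFP libraries and at 2.71, 1.6003 and 0.979 TPM in the 3 AAV-GFP libraries, and the log2 fold change was 1.40 (SE 0.28, limma adjusted p = 0.0716). Ddit3-202 was at 2.13, 1.67 and 1.57 TPM in the 3 AAV-Leptin-GFP libraries and at 0.428, 0.0914 and 0.199 TPM in the 3 AAV-GFP libraries, and it too is among the 8. Each of these transcripts held a small part of its gene, and the gene sums of Calr, Atf4 and Ddit3 given above did not pass.

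The transcripts of Ppp1r15a bear on the spread of its gene sum. Ppp1r15a-201, the coding transcript of 2333 nt, was at 38.8, 36.2 and 35.4 TPM in the 3 AAV-Leptin-GFP libraries and at 30.5, 26.1 and 27.2 TPM in the 3 AAV-GFP libraries. On this transcript the groups did not overlap, and the log2 fold change was 0.39 (SE 0.078, limma adjusted p = 0.0727, range 0.0415 to 0.201 over 13 alternatives, 1 of them under 0.05). Ppp1r15a-203, a coding model of 389 nt, was at 12.7, 15.2 and 0 TPM in the 3 AAV-Leptin-GFP libraries and at 10.4, 0 and 6.61 TPM in the 3 AAV-GFP libraries. A library of each group was thus listed at 0 for it, and in AAV-Leptin-GFP replicate 3 and AAV-GFP replicate 2 the gene sum was the lowest of its group. Ppp1r15a-202 held 1.97, 2.75 and 1.57 TPM in the 3 AAV-Leptin-GFP libraries against 0.609, 0.195 and 0.659 TPM in the 3 AAV-GFP libraries. No transcript of Ppp1r15a is annotated as retained-intron.

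The rest of the pathway was read from 5 lists of other genes, and none of their genes was called by limma. Over all tested genes, 11.3% were higher and 8.19% lower at an unadjusted p under 0.05, the shares to set beside the counts that follow. Among other genes of ER folding, translocation and redox, 0 of 31 passed and 5 were lower at an unadjusted p under 0.05 by limma, with a median log2 fold change of -0.066. The smallest p there belonged to Sec62, of the translocation channel, at 127, 125 and 129 TPM in the 3 AAV-Leptin-GFP libraries and 142, 137 and 139 TPM in the 3 AAV-GFP libraries (log2 fold change -0.13, limma adjusted p = 0.125). Of other ER-associated degradation genes 0 of 21 passed and 3 were lower at an unadjusted p under 0.05. Selenok, a selenoprotein of the ER membrane, was at 237, 232 and 222 TPM in the 3 AAV-Leptin-GFP libraries against 256, 284 and 295 TPM in the 3 AAV-GFP libraries (log2 fold change -0.27, SE 0.059, limma adjusted p = 0.0715, under 0.05 in 1 of 17 alternatives). All of its AAV-Leptin-GFP values lay below all of its AAV-GFP values. Summed TPM of the folding list were 2365 to 2433 with AAV-Leptin-GFP and 2504 to 2567 with AAV-GFP. Those of the degradation list were 2025 to 2098 with AAV-Leptin-GFP and 2158 to 2213 with AAV-GFP. The sums of the lists that follow overlapped between the groups. The part of the mitochondrial share in these lower sums was not tested.

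Of other sensors and regulators of the unfolded protein response 0 of 19 passed, with 1 higher and 1 lower at an unadjusted p under 0.05. Rtcb, the ligase that joins the cut Xbp1 mRNA, averaged 119 ± 3.87 TPM with AAV-Leptin-GFP and 129.7 ± 2.35 TPM with AAV-GFP (log2 fold change -0.12, limma adjusted p = 0.198). Of other eIF2 kinases and eIF2 factors 0 of 14 passed, with 1 higher and 1 lower at an unadjusted p under 0.05. Eif2s2, the beta subunit of eIF2, averaged 78.3 ± 1.94 TPM with AAV-Leptin-GFP and 87.9 ± 2.73 TPM with AAV-GFP (log2 fold change -0.17, limma adjusted p = 0.115). Of other ATF4 target genes 0 of 27 passed, with 4 higher and 2 lower at an unadjusted p under 0.05 and a median of 0.033. Shmt2, an enzyme of mitochondrial serine metabolism, was at 24.4, 20.8 and 22.7 TPM in the 3 AAV-Leptin-GFP libraries and at 18.5, 15.8 and 17.9 TPM in the 3 AAV-GFP libraries. Its groups did not overlap, and the log2 fold change was 0.36 (SE 0.088, limma adjusted p = 0.0884). In the same fit 13 of 13 tested immediate early genes were called higher with AAV-Leptin-GFP, against 1.54% of all tested genes. Their median log2 fold change was 1.22, and 0 to 13 of them were called over the alternatives. They include Fosb at 59.1, 91.3 and 56.2 TPM in the 3 AAV-Leptin-GFP libraries and 13.5, 11.4 and 9.24 TPM in the 3 AAV-GFP libraries (limma adjusted p = 0.00835). The immediate early list was chosen with earlier results of these data known, so it is no independent check of the test.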

How the data were processed

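Transcript-level TPM were deposited by the authors, summing to 1000000 in each of 6 libraries and listing 140789 transcripts. The submitters' processing notes name the build GRCm38 and the tools Salmon 1.6.0, DESeq2 1.34.0, Trim Galore 0.6.6 and FastQC 0.11.9. Depth is unknown, so no count test was run. Salmon divides reads among overlapping transcripts by estimation, so levels of single transcripts of a gene are less certain than its sum. TPM were summed by gene identifier, and those averaging 1 TPM or more were tested with limma 3.58.1 (R 4.3.3, mean-variance trend, no covariate) on log2(TPM + 1). The test was tried on simulated data with normal noise at each gene's own spread within groups. Of 100 randomly picked genes changed by a log2 of 0.5, it called 40 in the right direction. Of 100 changed by 1 it called 80, with 7 false calls in the simulated set. Transcript classes and coordinates come from GENCODE M21 on GRCm38, which holds 97.4% of the transcript identifiers, while no source used here gives the annotation release behind the deposited table. Promoter sequences come from RefSeq (GRCm38.p6). All 33 genes are named. Values per library are given for sensors and factors of the arms, for genes at an unadjusted p under 0.05, and for the highest and smallest-p gene of each arm. In the other pathway lists, which had no called gene, the gene with the smallest p is named. Marker lists are given as sums, and of the called immediate early genes Fosb alone is named, picked after its values were seen. Genes, arms, other pathway lists, marker lists, the immediate early list and tests were chosen with earlier results of these data known.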

Additional observations from a re-analysis of the deposited data

How the results depend on the processing

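Over 17 alternatives of the gene test (other pseudocounts, filters, scalings, transcript sets, no mean-variance trend, a replicate block and each library left out), 0 of the 33 genes were called in any, and the smallest adjusted p was 0.163. Leaving retained-intron transcripts out of the sums was chosen after seeing the data. Of 558 values 51 changed sign, in 18 genes, all of them uncalled, and 20 had an unadjusted p under 0.05. The IRE1-XBP1 median was -0.0499 with quantile normalization, which moved the median of all genes to -0.038, and -0.0511 to 0.053 with single libraries left out, the lowest without AAV-Leptin-GFP replicate 2. The ATF6 median was -0.030 to 0.042 and the PERK-ATF4 median -0.0033 to 0.090 with single libraries left out. Over coding transcripts the ATF6 and PERK-ATF4 medians were -0.029 and -0.0075, where the median of all genes was -0.035. With the other arm assignment, in which Herpud1, Sel1l and Pdia6 move, the medians were -0.0043 (ATF6), 0.0026 (IRE1-XBP1) and 0.026 (PERK-ATF4). Single libraries left out gave 0 to 3 transcripts called higher: 3 without AAV-GFP replicate 1 (Ppp1r15a-201, Calr-203, Atf4-203) and 0 without any other. Over all 33615 tested transcripts, 1196 were called higher without AAV-GFP replicate 1, against 36 in the main fit. Without a mean-variance trend 3 were called (Hsp90b1-202, Ddit3-202, Xbp1-203), beside 460 higher of all 33615, and the cause was not tested. Of these 6 transcripts Calr-203, Hsp90b1-202, Ddit3-202 and Xbp1-203 had AAV-GFP means under 1 TPM. They passed the filter through the AAV-Leptin-GFP group alone and had to differ, so no weight rests on their calls. Pseudocount 5, coding transcripts only and removal of mitochondrial genes were not run on transcripts. The replicate block called 0 of the 33 genes, and over all genes 74 higher and 0 lower against 233 and 10 without it. Deviations of same-numbered libraries correlated at -0.070 to 0.034, and those of differently numbered ones at -0.082 to 0.11. With so few libraries these correlations cannot show whether same-numbered libraries shared a batch. The labels give the replicate number alone. Over all genes, leaving out AAV-GFP replicate 1 gave 409 higher calls, and leaving out replicate 2 of that group gave 3. The unknown read depth limits what can be said of the scarcest transcripts.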
